A study of Homo sapiens with 114 samples.

Results

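The plasminogen activator system was followed through 5 genes. These were the urokinase receptor gene PLAUR, the urokinase gene PLAU, the tissue-type plasminogen activator gene PLAT, and the inhibitor genes SERPINE2 and SERPINB2. Their probe sets were found by gene symbol. Of the 54675 probe sets on the arrays, 8 carried 1 of these symbols, and they covered 4 of the 5 genes among 19775 genes in all. PLAUR had 3 probe sets (211924_s_at, 210845_s_at and 214866_at), PLAU had 2 (205479_s_at and 211668_s_at), SERPINE2 had 2 (212190_at and 227487_s_at) and PLAT had 1 (201860_s_at). SERPINB2, which encodes another inhibitor of both activators, was not analysed here. The probe set with the highest overall mean, named first in each pair of brackets, stood for its gene.

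The study exposed HK-2 cells, an immortalized line from human renal proximal tubular epithelium, to 9 compounds known by the abbreviations of the labels in search of expression signatures of toxicity. RNA was measured on Affymetrix arrays in 38 groups of 3 biological replicates, 26 treated and 12 given vehicle. All cultures were near confluence at treatment and had the same medium, which held epidermal growth factor, hydrocortisone, insulin and transferrin. Nothing in the labels says whether replicates came from separate passages, so p-values measure only the spread between these samples. Exposure lasted 24 or 48 h for Aa, Kbr and Nnm and 24 or 72 h for Ota, each with low-dose and high-dose groups. For the remaining compounds, Fk, Ra, CsA, Di and CdCl, there was a single dose with times of 12 and 48 h, and all CsA arrays also carry the label lab 3. The labels name shared control cultures for Nnm with Kbr, for Fk with Ra and for CdCl with Di, so the arrays form 6 families (CsA, Aa, Nnm-Kbr, Ota, Fk-Ra and CdCl-Di), and comparisons within a family are not independent of each other.

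Urokinase and tissue-type plasminogen activator are secreted serine proteases that cut plasminogen to plasmin, which degrades fibrin and matrix proteins and activates other proteases. The urokinase receptor is a membrane-anchored protein that holds urokinase at the cell surface and also contacts integrins. Protease nexin-1, the product of SERPINE2, is a serpin that inhibits urokinase, tissue-type activator and thrombin near the cell surface. In kidney, tubular epithelium is a known source of urokinase, and the system is known for its part in fibrin clearance and in scarring after injury.

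In RefSeq's annotation of GRCh38.p14, PLAUR lies at chr19:43646095-43670169, PLAU at chr10:73908832-73917494 and SERPINE2 at chr2:223975045-224039286. Promoters of these 3 genes are shown because their transcripts were called higher together with several compounds. Each line gives the 250 bases before a transcript start in RefSeq's table for that build, 5′ to 3′ on the gene's strand. Capitals mark AP-1 matches (TGANTCA) and GC boxes (GGGCGG, read as CCGCCC on the other strand).
PLAUR, chr19:43670170-43670419, minus strand: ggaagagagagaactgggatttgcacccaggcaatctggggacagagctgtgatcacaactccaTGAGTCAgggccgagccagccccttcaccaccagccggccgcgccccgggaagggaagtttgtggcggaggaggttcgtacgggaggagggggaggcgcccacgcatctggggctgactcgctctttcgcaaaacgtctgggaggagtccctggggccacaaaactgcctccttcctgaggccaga
PLAU, chr10:73910882-73911131, plus strand: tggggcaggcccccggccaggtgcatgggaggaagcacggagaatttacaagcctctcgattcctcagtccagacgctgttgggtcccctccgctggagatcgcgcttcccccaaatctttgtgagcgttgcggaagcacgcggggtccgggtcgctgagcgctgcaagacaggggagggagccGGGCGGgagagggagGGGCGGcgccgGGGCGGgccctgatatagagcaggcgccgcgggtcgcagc
SERPINE2, chr2:224038641-224038890, minus strand: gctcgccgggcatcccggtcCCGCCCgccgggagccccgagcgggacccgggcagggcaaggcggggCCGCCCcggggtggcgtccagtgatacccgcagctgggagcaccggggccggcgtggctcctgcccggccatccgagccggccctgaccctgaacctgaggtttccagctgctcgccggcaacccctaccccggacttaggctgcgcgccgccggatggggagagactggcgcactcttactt
Both strands were searched for these letters, for the cyclic AMP element TGACGTCA and for TATAAA. The AP-1 letters stood in the PLAUR window at bases -186 to -180 before the start, and 6.57% of 35116 such windows in the table held a match. The PLAU window held 3 GC boxes at bases -66 to -61, -51 to -46 and -40 to -35, and the SERPINE2 window 2 at bases -230 to -225 and -183 to -178. GC boxes were found in 42.6% of the windows, TGACGTCA in 1.65% and TATAAA in 10.7%. RefSeq gives PLAU and SERPINE2 another window each, not printed, of which that of PLAU (chr10:73910360-73910609) held no match and that of SERPINE2 (chr2:224031479-224031728) 1 GC box. The windows with most matches are the ones shown, and the matches describe letters only.

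All values are log2 values as deposited, and a level of 4 was taken as the limit under which a probe set was treated as background. The 5 epithelial markers KRT8, KRT18, KRT19, EPCAM and CDH1 had a median above 4 in the controls. Of 8 proximal tubule markers measured, 0 had a control median above 4 and 6 never passed it on any array, so HK-2 cells carried the epithelial but not the defining tubular markers. Of 5 fibroblast-associated markers 3 had a control median above 4, namely COL1A1 at 8.2, DCN at 11.42 and LUM at 9.49, and COL3A1 at 2.82 and PDGFRB at 2.4 did not, whereas the 4 endothelial and 4 leukocyte markers measured all had control medians under 4. Some array measures moved with treatment. RNA quality was read from the ACTB controls as the signal of the 3 prime minus that of the 5 prime probe set, which averaged 1.929 in Ota high 72 h (1.661 to 2.299) and 1.365 in its controls (1.161 to 1.51). In Aa high 48 h it averaged 1.352 (1.139 to 1.694) and in its controls 0.932 (0.771 to 1.15). The upper quartile of all values averaged 6.488 in Ota high 24 h and 7.041 in its controls, and Ra 48 h replicate 2 stood apart at 6.091. The part of these measures in the results was not tested.

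Over all arrays the log2 value of PLAUR ran from 3.95 to 10.75 with a median of 7.08. PLAU ran from 8.90 to 13.46 with a median of 11.03, PLAT from 3.47 to 10.84 with a median of 6.17 and SERPINE2 from 9.20 to 13.89 with a median of 12.11. PLAU and SERPINE2 were above background on every array, PLAUR on 113 and PLAT on 95. Ordered by group mean, PLAUR was highest in Ota high 72 h at 10.70 ± 0.045 (SD, n = 3) and lowest in the Ota controls of 72 h at 4.63 ± 0.593. PLAU was highest in Fk 48 h at 12.83 ± 0.567 and lowest in the same Ota controls at 9.38 ± 0.579. PLAT was highest in Fk 12 h at 10.46 ± 0.263 and lowest again in those controls at 3.57 ± 0.106. SERPINE2 was highest in Di 48 h at 13.83 ± 0.058 and lowest in those controls at 9.84 ± 0.595. Along these orders most neighbouring groups overlapped, and of 37 steps only 2 separated the arrays of adjacent groups for PLAUR, PLAU and PLAT each, and 6 for SERPINE2. The 2 clear steps of PLAUR came at the top of its order, below Ota high 72 h and below Ra 12 h.

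**Figure D1:**
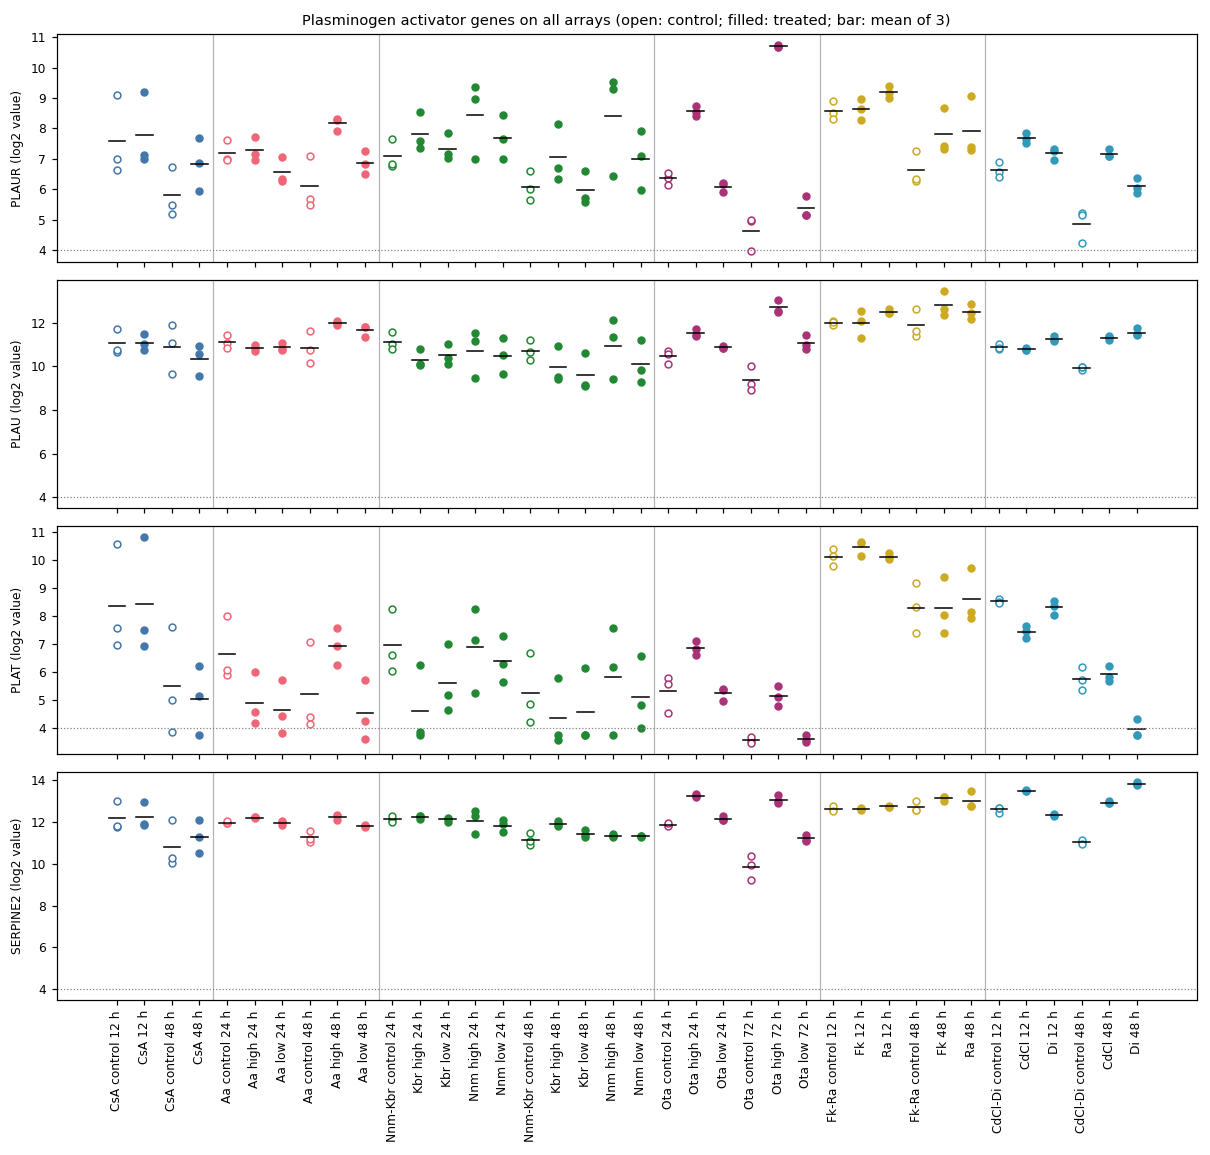
Log2 values of PLAUR, PLAU, PLAT and SERPINE2 (vertical axes) on all arrays in 38 groups (horizontal axis), with open points for controls, filled points for treated arrays, 1 colour per family, bars for the mean of 3 and a dotted line at 4. PLAUR in Ota high 72 h lies above every other group, and the Ota controls of 72 h are the lowest group mean of all 4 genes.

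Each treated group was compared with the 3 control arrays of its time and family by limma, and a gene was called when its p-value, adjusted by Benjamini-Hochberg over all genes tested in the family, was under 0.05. A change is the difference of 2 means of 3 log2 values ± its standard error, and rose or fell refers to the controls of the same time. Of 104 results (4 genes in 26 comparisons), 30 were called, 27 higher and 3 lower. PLAUR and PLAU each rose in 8 comparisons and were not called in 18. SERPINE2 rose in 9 and fell in 1, and PLAT rose in 2 and fell in 2. The median gene tested in all families was called higher in 2 comparisons and lower in 3. Over the same 26 comparisons the share of all tested genes called ran from 0 to 65%, with a median of 22.4% that is not a pooled share. The number of calls, apart from their direction, is therefore not read as particular to these genes. All 4 genes rose together in 2 comparisons, 3 of the 4 in 4 further ones, and in 15 comparisons no gene was called, where 7 of 60 results had an unadjusted limma p under 0.05.

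The counts per comparison are set beside the share of all tested genes called in the same comparison. In Ota high 24 h and Ota high 72 h 4 of 4 genes were called, beside 65% and 63.2% of all genes. In Ota low 72 h 3 were called beside 16%, and in Ota low 24 h 0 beside 13.7%. In CdCl 12 h 3 were called beside 48.7%, in CdCl 48 h 3 beside 46.4%, in Di 12 h 2 beside 11.8%, and in Di 48 h 4 beside 47.4%. Aa gave 3 calls at the high dose for 48 h beside 64.3%, 2 at the low dose for 48 h beside 37%, and 0 at 24 h, beside 49.9% at the high dose and 23.2% at the low dose. Kbr high 48 h gave 1 call beside 51.1%, and Nnm high 48 h 1 beside 27.7%. The other Kbr and Nnm groups gave 0 calls, beside 21.6% in Kbr high 24 h, 1.36% in Kbr low 24 h and 29.4% in Kbr low 48 h. For Nnm these shares were 35.9% in Nnm high 24 h, 18.5% in Nnm low 24 h and 14.1% in Nnm low 48 h. CsA, Fk and Ra gave 0 calls among these genes, beside 0% in CsA 12 h, 0.00925% in CsA 48 h, 0.00918% in Fk 12 h, 0% in Fk 48 h, 0.0367% in Ra 12 h and 9.33% in Ra 48 h. Each of these counts rests on only 4 genes.

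**Figure D2:**
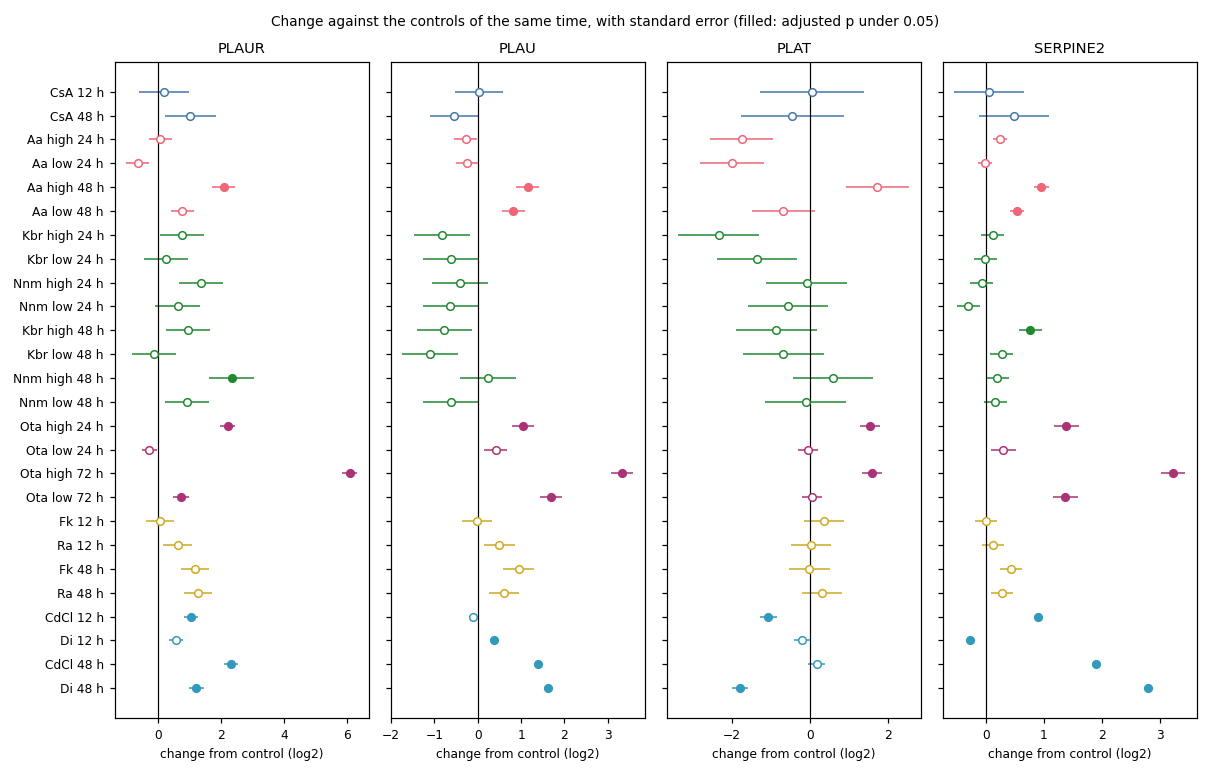
Change of each gene from the controls of the same time (horizontal axis, log2, with standard error) in the 26 treated groups (vertical axis), filled where the adjusted p was under 0.05. Filled points right of 0 lie at Ota high, Ota low 72 h, CdCl, Di and both Aa doses at 48 h, with 1 each at Kbr high 48 h and Nnm high 48 h. The filled points left of 0 are PLAT in CdCl 12 h and Di 48 h and SERPINE2 in Di 12 h.

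PLAUR, the receptor, showed its largest change with Ota at the high dose. At 72 h its log2 values were 10.67, 10.75 and 10.67 with the high dose and 3.95, 4.96 and 4.99 in the controls. The lowest treated array lay more than 5 log2 units above the highest control, with a change of 6.07 ± 0.239, or 67.0-fold (limma adjusted p = 3.37e-11). The controls were close to background there, so the size of the fold depends on the background correction. At 24 h the values were 8.53, 8.41 and 8.75 against 6.36, 6.15 and 6.55, again without overlap, a rise of 2.21 ± 0.239 (adjusted p = 9.07e-07). With the low dose the values at 24 h, 6.21, 6.16 and 5.89, overlapped the controls (-0.27 ± 0.239). At 72 h the low dose gave 5.16, 5.16 and 5.77, above all 3 controls, and the rise of 0.73 ± 0.239 only just passed the test (adjusted p = 0.049). It missed the test in 14 of the 18 fits that left out 1 array of the family, falling to 0.39 without control 72 h replicate 1 (adjusted p = 0.232) and to 0.53 without low-dose replicate 3 (adjusted p = 0.215).

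CdCl and Di also raised PLAUR. At 12 h the CdCl values were 7.53, 7.64 and 7.86 and the shared controls 6.57, 6.89 and 6.39, a rise of 1.06 ± 0.223 (limma adjusted p = 0.00121). At 48 h the CdCl values of 7.09, 7.10 and 7.31 stood against control values of 4.23, 5.22 and 5.15, a rise of 2.30 ± 0.223 (adjusted p = 8.44e-07). The CdCl level itself was lower at 48 than at 12 h, and the controls were lower still. Di gave 6.37, 6.03 and 5.87 at 48 h, also above every control, a rise of 1.22 ± 0.223 (adjusted p = 0.000344). At 12 h Di gave 6.94, 7.31 and 7.27, likewise outside the control range, but the difference of 0.56 ± 0.223 was not called (adjusted p = 0.117). It was called without control 48 h replicate 1 (0.56, adjusted p = 0.0354), with the mean of all probe sets (0.43, adjusted p = 0.0367) and with 210845_s_at (0.62, adjusted p = 0.0164).

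With Aa, PLAUR rose at the high dose for 48 h. The treated values were 7.93, 8.27 and 8.31 and the controls 5.68, 5.49 and 7.09, a change of 2.08 ± 0.364 without overlap (limma adjusted p = 0.000138). The low dose gave 6.84, 6.51 and 7.24 at 48 h, which overlapped control replicate 3, and its difference of 0.77 ± 0.364 was not called (adjusted p = 0.11). With the replicate number as a block, as the pairing of this family's numbers allows, it was called (± 0.223, adjusted p = 0.0142), and without control 48 h replicate 3 it was 1.27 (adjusted p = 0.00536). At 24 h the high dose differed by 0.07 ± 0.364 and the low dose by -0.64 ± 0.364, the latter called lower with the block only (adjusted p = 0.0437).

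Nnm at the high dose for 48 h gave uneven PLAUR values of 9.30, 6.44 and 9.51, with controls at 5.63, 6.02 and 6.61. Replicate 2 lay within the control range and the other two far above it. The rise of 2.33 ± 0.698 was called (limma adjusted p = 0.0167), but not without high-dose replicate 1 (1.89, adjusted p = 0.106), high-dose replicate 3 (1.79, adjusted p = 0.111) or control replicate 1 (2.11, adjusted p = 0.0628), nor in a fit of these 6 arrays alone (adjusted p = 0.122). At 24 h replicate 2 again lay within the control range, with 8.98, 7.00 and 9.35 against 6.77, 6.84 and 7.64. That difference of 1.36 ± 0.698 was not called (adjusted p = 0.132), but it was with the block (adjusted p = 0.0185), without high-dose replicate 2 (2.08, adjusted p = 0.0208) and in a single fit of all arrays (adjusted p = 0.044). In the other Nnm groups and in all Kbr groups the difference ran from -0.13 to 0.96 and was not called. CsA 48 h differed by 1.03 ± 0.795, and this was called with the block (± 0.127, adjusted p = 0.00445), each treated array exceeding the control of its number (5.93, 6.86 and 7.69 against 5.17, 5.49 and 6.74).

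Fk and Ra did not change PLAUR beyond the test. At 48 h the Ra values were 7.27, 7.38 and 9.08, the Fk values 7.43, 7.31 and 8.67, and their shared controls 6.27, 6.34 and 7.25. No treated array lay within the control range, by a small margin, and the differences were 1.28 ± 0.446 for Ra (limma adjusted p = 0.0749) and 1.18 ± 0.446 for Fk (adjusted p = 1). Without control replicate 3 or without Ra replicate 1 the Ra difference was 1.60 and passed (adjusted p = 0.0401 and 0.0302), and with quantile normalization it was 1.51 (adjusted p = 0.0328). With 210845_s_at it was 1.71 ± 0.438 (adjusted p = 0.0345). The 95% interval of the Fk difference ran from 0.23 to 2.12, so the arrays leave room for a sizeable change. At 12 h Ra differed by 0.62 ± 0.446 and Fk by 0.06 ± 0.446.

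The 3 PLAUR probe sets did not always move alike. In Ota high 72 h 210845_s_at rose by 5.90 ± 0.237, close to 211924_s_at, but 214866_at rose by 2.07 ± 0.356. In Aa high 48 h 210845_s_at rose by 1.83 ± 0.441, and 214866_at differed by 0.25 ± 0.222 and was not called. In Ota low 72 h the rise seen with 211924_s_at was absent from both others, at 0.10 ± 0.237 and -0.04 ± 0.356. All 3 were called higher with CdCl at both times, with Di and Nnm high at 48 h, and with Ota high at both times.

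**Figure D3:**
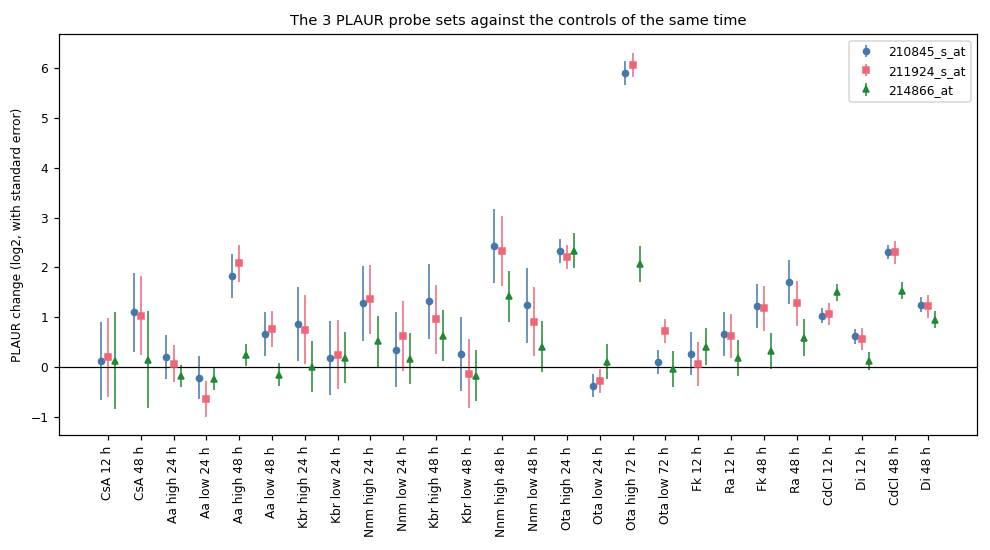
Change of the 3 PLAUR probe sets (vertical axis, log2, with standard error) in the 26 treated groups against the controls of the same time (horizontal axis). In Ota high 72 h 211924_s_at and 210845_s_at stand near 6 and 214866_at near 2.

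PLAU, the activator that binds this receptor, rose with Ota, CdCl, Di and Aa. In Ota high 72 h its values were 12.51, 12.54 and 13.06 and those of the controls 9.21, 8.90 and 10.02. The groups did not overlap, and the rise of 3.33 ± 0.256 was 10.0-fold (limma adjusted p = 2.76e-08). The low dose for 72 h gave 10.96, 10.81 and 11.44, between the high dose and the controls, a rise of 1.69 ± 0.256 (adjusted p = 0.000408). In Ota high 24 h the values of 11.40, 11.43 and 11.71 stood above controls of 10.71, 10.11 and 10.56, a rise of 1.05 ± 0.256 (adjusted p = 0.002). Ota low 24 h lay at 10.84, 10.83 and 10.93, just above the same controls, and its difference of 0.41 ± 0.256 was not called.

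In the CdCl-Di family PLAU rose at 48 h with both compounds. CdCl gave 11.39, 11.21 and 11.34 and Di gave 11.43, 11.47 and 11.74, with shared controls at 9.83, 9.99 and 9.96. Both groups were clear of the controls, with rises of 1.39 ± 0.0963 for CdCl (limma adjusted p = 2.51e-08) and 1.62 ± 0.0963 for Di (adjusted p = 3.32e-09). At 12 h Di gave 11.17, 11.39 and 11.21 against controls of 10.79, 11.02 and 10.86. That rise of 0.37 ± 0.0963 (adjusted p = 0.0244) was lost without Di replicate 2 (0.30, adjusted p = 0.0827), without control 12 h replicate 1 (0.32, adjusted p = 0.0774) and without control 12 h replicate 3 (0.35, adjusted p = 0.0792). CdCl at 12 h, at 10.76, 10.76 and 10.86, overlapped the controls (-0.10 ± 0.0963).

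Aa raised PLAU at 48 h. The high dose gave 12.10, 11.89 and 11.98 and the controls 10.76, 10.15 and 11.61, a rise of 1.15 ± 0.27 without overlap (limma adjusted p = 0.0016). The low dose gave 11.80, 11.35 and 11.82, of which replicate 2 lay within the control range, and its rise was 0.82 ± 0.27 (adjusted p = 0.0276). It was lost without control 48 h replicate 1 (0.78, adjusted p = 0.0746), without control 48 h replicate 2 (0.47, adjusted p = 0.149), without low-dose replicate 1 (0.74, adjusted p = 0.0885) and without low-dose replicate 3 (0.74, adjusted p = 0.0912). At 24 h Aa differed by -0.28 ± 0.27 at the high and -0.24 ± 0.27 at the low dose.

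Kbr and Nnm did not raise PLAU. In Kbr low 48 h the values were 9.15, 9.11 and 10.61 and the controls 10.64, 10.30 and 11.22. Each treated array lay below the control of its number, and the difference of -1.10 ± 0.644 was called only with the replicate number as a block (± 0.327, limma adjusted p = 0.0115). The other Kbr groups lay at -0.61 to -0.82 and the Nnm groups at -0.63 to 0.23, none of them called. CsA differed by 0.03 ± 0.555 at 12 h and -0.54 ± 0.555 at 48 h. Fk 48 h differed by 0.94 ± 0.35 and Ra 48 h by 0.60 ± 0.35, neither called. The probe set 211668_s_at gave rises of 3.19 ± 0.287 in Ota high 72 h and 1.88 ± 0.1 in Di 48 h, near those of 205479_s_at. Of its 61 results over all kinds of comparison, 56 had the same call as 205479_s_at and 5 lost a call. Among those lost was Aa low 48 h (0.77 ± 0.334, limma adjusted p = 0.0879).

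PLAT, the other activator, moved in both directions in the fits by family, and its 4 calls were not made in a single fit of all arrays (adjusted p = 0.0983 to 0.372). In Ota high 24 h its values were 6.83, 7.10 and 6.62 and those of the controls 5.80, 4.57 and 5.59, a rise of 1.53 ± 0.26 without overlap (limma adjusted p = 9.44e-05). In Ota high 72 h they were 5.50, 4.82 and 5.13 against 3.56, 3.69 and 3.47, a rise of 1.58 ± 0.26 (adjusted p = 7.42e-05). All 3 controls were at background at 72 h. With quantile normalization the 24 h rise was 2.07 ± 0.246. The low dose differed by -0.06 ± 0.26 at 24 h and 0.05 ± 0.26 at 72 h, where its 3 arrays at 3.77, 3.60 and 3.51 were at background too.

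With CdCl and Di PLAT fell, at different times. CdCl 12 h gave 7.49, 7.21 and 7.66 and the controls 8.61, 8.51 and 8.47, a fall of -1.07 ± 0.213 (limma adjusted p = 0.000764). Di at 12 h, at 8.38, 8.05 and 8.53, overlapped the same controls (-0.21 ± 0.213). At 48 h Di gave 4.36, 3.78 and 3.77, of which 2 were at background, and the controls 5.36, 5.73 and 6.18. Those groups were apart, with a fall of -1.79 ± 0.213 (adjusted p = 5.9e-06). CdCl at 48 h, at 6.22, 5.70 and 5.85, was not different beyond the spread (0.17 ± 0.213). PLAT was thus called lower in Di 48 h where PLAUR, PLAU and SERPINE2 were called higher.

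In the Aa and Nnm-Kbr families PLAT varied widely between replicates, and its calls there depended on the replicate block. With Aa at the high dose for 24 h the values were 4.57, 4.18 and 6.00 and in the controls 5.92, 6.07 and 8.02. Each treated array lay below the control of its number, by -1.75 ± 0.814 without the block (limma adjusted p = 0.0868) and ± 0.346 with it (adjusted p = 0.00118). The call was also made without high-dose 24 h replicate 3 (-2.29, adjusted p = 0.047) and without control 48 h replicate 3 (-1.75, adjusted p = 0.0448). The low dose for 24 h, at 3.85, 4.44 and 5.71, differed by -2.00 ± 0.814 from the controls without overlap (adjusted p = 0.0901, with the block 0.00142, and without control 48 h replicate 3 0.0476).

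At 48 h the direction in Aa high was the opposite. The values were 6.94, 6.28 and 7.58 against controls of 4.16, 4.41 and 7.09, a difference of 1.72 ± 0.814 (limma adjusted p = 0.0777, with the block 0.000938). Replicate 3 of the controls lay within the treated range, and without it the difference was 2.65 (adjusted p = 0.00755). Kbr at 24 h gave 3.88, 3.78 and 6.25 at the high dose and 5.18, 4.67 and 7.00 at the low dose, with controls at 6.61, 6.06 and 8.27. These differences of -2.34 ± 1.03 and -1.36 ± 1.03 were not called, and both were with the block (adjusted p = 0.000225 and 0.0411). The first was also called in a single fit of all arrays (adjusted p = 0.0392). CsA, Nnm, Fk and Ra gave differences of -0.56 to 0.59, none of them called in either fit, nor were Aa low 48 h (-0.68), Kbr high 48 h (-0.86) and Kbr low 48 h (-0.68).

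SERPINE2, the inhibitor, had the smallest spread between replicates, with a median group SD of 0.12, against 0.36 for PLAU, 0.46 for PLAUR and 0.96 for PLAT. Its largest rise relative to its error was in Di 48 h, where the values were 13.78, 13.83 and 13.89 and the controls 11.02, 11.13 and 10.93. The change was 2.80 ± 0.0738, or 6.98-fold (limma adjusted p = 4.91e-13). At 12 h Di gave 12.31, 12.32 and 12.36 and the controls 12.45, 12.67 and 12.68, all above the treated arrays. This fall of -0.27 ± 0.0738 (adjusted p = 0.0289) was lost when any 1 of the 3 Di 12 h arrays was left out (-0.26 to -0.29, adjusted p = 0.0553 to 0.0681), without control 12 h replicate 2 (-0.23, adjusted p = 0.114) and without control 12 h replicate 3 (-0.23, adjusted p = 0.107).

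CdCl raised SERPINE2 at both times. At 12 h the values of 13.51, 13.50 and 13.51 stood above the same controls, a rise of 0.90 ± 0.0738 (limma adjusted p = 2.24e-07). At 48 h they were 12.99, 12.90 and 12.92, a rise of 1.91 ± 0.0738 (adjusted p = 6.24e-11). As with PLAUR, the CdCl level was lower at 48 than at 12 h while the difference from the controls was larger.

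Ota high raised SERPINE2 to 13.33, 13.24 and 13.20 at 24 h from controls of 11.85, 11.79 and 11.96, by 1.39 ± 0.213 (limma adjusted p = 3.45e-05). At 72 h the values were 12.91, 13.02 and 13.30 and the controls 9.94, 9.20 and 10.38, a rise of 3.23 ± 0.213, or 9.4-fold (adjusted p = 6.04e-09). The low dose for 72 h gave 11.16, 11.10 and 11.39, above the controls and below the high dose, a rise of 1.37 ± 0.213 (adjusted p = 0.000472). At 24 h the low dose gave 12.11, 12.27 and 12.11, outside the control range but not called (0.30 ± 0.213). The second probe set, 227487_s_at, was above background on 19 arrays and rose by 1.87 ± 0.168 in Ota high 72 h and 3.30 ± 0.271 in Di 48 h.

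Smaller rises of SERPINE2 came with Aa and Kbr. Aa high 48 h gave 12.32, 12.28 and 12.08 and Aa low 48 h 11.86, 11.81 and 11.77, with controls at 11.04, 11.19 and 11.58. Neither overlapped the controls, and the rises were 0.96 ± 0.123 (limma adjusted p = 6.84e-06) and 0.54 ± 0.123 (adjusted p = 0.00311). Kbr high 48 h gave 11.80, 11.93 and 12.06 and its controls 10.90, 11.11 and 11.46, a rise of 0.77 ± 0.197 (adjusted p = 0.00243). Kbr low 48 h (0.27 ± 0.197), Nnm high 48 h (0.20 ± 0.197) and the remaining Kbr, Nnm and CsA groups were not called. With Fk 48 h the values of 13.22, 13.21 and 13.02 lay above controls of 12.60, 12.57 and 12.98, a difference of 0.43 ± 0.188 that was not called.

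After quantile normalization of the arrays the 30 called changes against controls shifted by between -0.11 and 0.54, and 29 of them passed the test, the exception being PLAUR in Ota low 72 h (0.62, limma adjusted p = 0.0808). In a single fit of all arrays, which shares 1 spread over all families, 21 of 104 results were called and 11 of the 30 were lost. All 4 PLAT calls were among those lost, with adjusted p of 0.108 in Ota high 24 h, 0.0983 in Ota high 72 h, 0.372 in CdCl 12 h and 0.109 in Di 48 h. PLAUR lost CdCl 12 h (0.147), Di 48 h (0.0863) and Ota low 72 h (0.421), and PLAU lost Aa low 48 h (0.172) and Di 12 h (0.889). SERPINE2 lost Aa low 48 h (0.12) and Di 12 h (0.835).

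The high dose was compared with the low dose of the same compound and time, to see whether the members followed the dose. Of 32 results 11 were called, all of them higher at the high dose. With Ota 4 of 4 genes were higher at 24 h, beside 58.9% of all genes called (2179 higher and 4383 lower). At 72 h it was again 4 of 4, beside 57.8% called (2325 higher and 4116 lower). PLAUR differed by 5.33 ± 0.239 at 72 h and 2.48 ± 0.239 at 24 h. PLAU differed by 1.63 ± 0.256 and 0.64 ± 0.256, PLAT by 1.53 ± 0.26 and 1.59 ± 0.26 and SERPINE2 by 1.86 ± 0.213 and 1.09 ± 0.213, in the same order of times. PLAU at 24 h (limma adjusted p = 0.0413) lost its call when any 1 of the 6 arrays compared was left out (0.55 to 0.70, adjusted p = 0.057 to 0.114).

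With Aa at 48 h 3 of 4 genes were higher at the high dose, beside 44.8% of all genes called (2249 higher and 2722 lower). PLAUR differed by 1.31 ± 0.364, SERPINE2 by 0.41 ± 0.123 and PLAT by 2.40 ± 0.814. The PLAT call (limma adjusted p = 0.0258) was lost without high-dose replicate 1 (2.39, adjusted p = 0.0551), high-dose replicate 3 (2.07, adjusted p = 0.0944), low-dose replicate 1 (1.95, adjusted p = 0.104) or low-dose replicate 2 (2.25, adjusted p = 0.0724), and had an adjusted p of 0.000174 with the replicate block. At 24 h 0 were called beside 26.4%, and with the block PLAUR was (0.72, adjusted p = 0.0262). Kbr gave 0 calls at 24 h beside 0.0544% and 0 at 48 h beside 8.03%, though SERPINE2 at 48 h differed by 0.50 ± 0.197 (adjusted p = 0.123, with the block 0.0216, and without Nnm high 24 h replicate 2 0.0248). Nnm gave 0 calls at both times beside 0% and 0% of all genes. Without Nnm high 48 h replicate 2 PLAUR differed by 2.41 there (adjusted p = 0.0314), and without Nnm high 24 h replicate 2 SERPINE2 at 24 h by 0.56 (adjusted p = 0.0141). In the 5 dose comparisons without a call, 1 of 20 results had an unadjusted limma p under 0.05.

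Control cultures were compared between their 2 times. Of 24 results 12 were called, all lower at the later time, and 12 were not called, among them SERPINE2 in the Fk-Ra controls at 0.09 ± 0.188. In the Ota controls all 4 genes fell between 24 and 72 h, beside 28.8% of all genes called (1511 higher and 1702 lower). In the CdCl-Di controls all 4 fell between 12 and 48 h, beside 48.9% called (2171 higher and 3234 lower). In the Ota controls the changes were -1.72 ± 0.239 for PLAUR, -1.08 ± 0.256 for PLAU, -1.74 ± 0.26 for PLAT and -2.02 ± 0.213 for SERPINE2. In the CdCl-Di controls they were -1.75 ± 0.223, -0.96 ± 0.0963, -2.77 ± 0.213 and -1.57 ± 0.0738, in the same order. PLAT was at background in all Ota controls at 72 h, so its fall there has only a lower bound. With 214866_at PLAUR was not called in the Ota controls (-0.72 ± 0.356, limma adjusted p = 0.159). It was called lower with that probe set in the CdCl-Di controls (-1.02 ± 0.173). With 210845_s_at PLAUR was called lower in both (-1.81 ± 0.237 for Ota and -1.93 ± 0.148 for CdCl-Di).

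In the Fk-Ra controls 2 of 4 genes fell, beside 16% of all genes called (849 higher and 891 lower). PLAUR fell by -1.95 ± 0.446, from 8.50, 8.30 and 8.91 to 6.27, 6.34 and 7.25 (limma adjusted p = 0.0104). That call was lost without control 12 h replicate 3 (-1.78, adjusted p = 0.0508) or control 48 h replicate 1 (-1.77, adjusted p = 0.0546). It was also lost with 214866_at (-0.82 ± 0.367, adjusted p = 0.15) and kept with 210845_s_at (-1.94 ± 0.438, adjusted p = 0.0114). PLAT fell by -1.81 ± 0.518 (adjusted p = 0.0284), a call kept only without control 48 h replicate 3 among the 6 control arrays and lost without any other of them (-1.37 to -1.96, adjusted p = 0.0563 to 0.147).

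The Aa controls gave 1 call beside 1.25% and the Nnm-Kbr controls 1 beside 0.598%, both SERPINE2, at -0.71 ± 0.123 and -0.98 ± 0.197. The first was lost without control 48 h replicate 1 (-0.59, adjusted p = 0.0953), control 48 h replicate 2 (-0.67, adjusted p = 0.0761) or control 24 h replicate 3 (-0.68, adjusted p = 0.0869). The second was lost without control 24 h replicate 1 (-0.99, limma adjusted p = 0.0731), control 24 h replicate 3 (-0.89, adjusted p = 0.233), control 48 h replicate 1 (-0.85, adjusted p = 0.223) or control 48 h replicate 2 (-0.95, adjusted p = 0.124). Without control 48 h replicate 3 of Aa, PLAUR was called there too (-1.61, adjusted p = 0.0121). The CsA controls gave 0 calls beside 13.5%, with 2 of 4 results at an unadjusted p under 0.05. SERPINE2 there was -1.37 ± 0.607, and -2.01 without control 48 h replicate 3 (adjusted p = 0.0469).

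**Figure D4:**
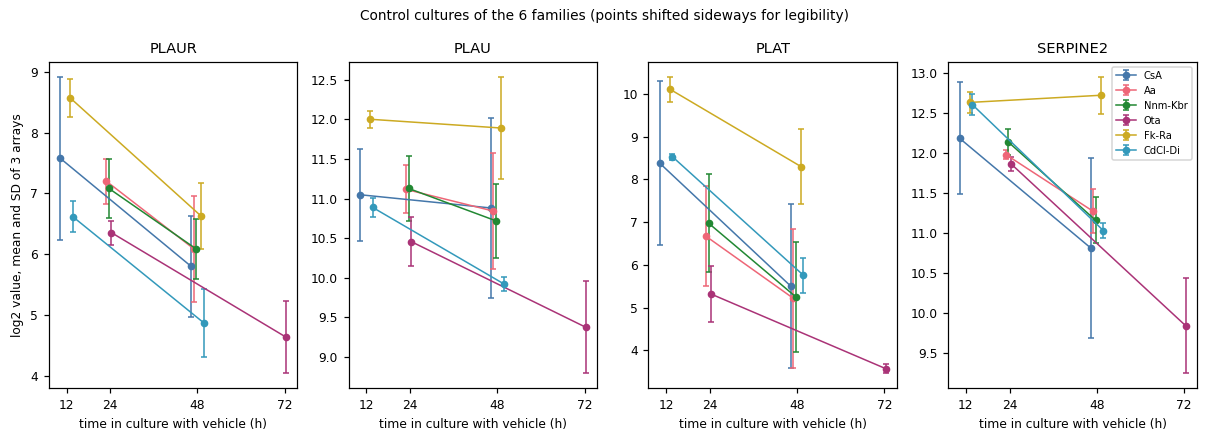
Mean log2 value with SD of 3 arrays (vertical axes) of the 4 genes in the control cultures of each family against time (horizontal axis, h). PLAUR and PLAT slope downward in all 6 families, and SERPINE2 in the Fk-Ra controls is level at 12.63 and 12.72.

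Because the controls moved, the response at the later time was set against the response at the earlier time, as the difference of the 2 changes. Of 52 results 16 were called, 15 higher and 1 lower. In Ota high 3 of 4 genes had a larger response at 72 h, beside 53.4% of all genes called (3647 higher and 2296 lower). The 3 were PLAUR at 3.85 ± 0.338, PLAU at 2.27 ± 0.362 and SERPINE2 at 1.84 ± 0.301. PLAT differed by 0.04 ± 0.368, but its controls were at background at 72 h, so its rise there has only a lower bound. With the further probe sets this comparison gave -0.26 ± 0.503 for PLAUR (214866_at) and -0.13 ± 0.237 for SERPINE2 (227487_s_at), neither called.

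In Ota low 2 of 4 were larger at 72 h, beside 6.3% of all genes called (531 higher and 171 lower). These were PLAU at 1.28 ± 0.362 (limma adjusted p = 0.048) and SERPINE2 at 1.07 ± 0.301 (adjusted p = 0.0467). The first was lost in 11 and the second in 13 of 18 fits that left out 1 array, with the smallest difference without control 72 h replicate 2 for both (1.05, adjusted p = 0.111, and 0.76, adjusted p = 0.062). With CdCl the difference from the controls was higher at 48 than at 12 h for 4 of 4 genes. That stood beside 30.4% of all genes called (2331 higher and 1032 lower). The values were 1.24 ± 0.316 for PLAUR, 1.49 ± 0.136 for PLAU, 1.24 ± 0.301 for PLAT and 1.00 ± 0.104 for SERPINE2. PLAUR with 214866_at gave 0.03 ± 0.244 and SERPINE2 with 227487_s_at -0.93 ± 0.384 here, neither called. Di had 3 of 4 called, beside 33.6%, with PLAU at 1.25 ± 0.136, SERPINE2 at 3.07 ± 0.104 and PLAT lower at -1.58 ± 0.301. Some Di 48 h arrays were at background for PLAT. PLAUR was not called with Di, but it was with the mean of all probe sets (0.71 ± 0.173, adjusted p = 0.00524) and with 214866_at (0.83 ± 0.244, adjusted p = 0.0171).

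Aa high had 4 of 4 genes with a higher response at 48 h, beside 18.8% of all genes called (736 higher and 1356 lower). PLAUR was at 2.01 ± 0.515 (0.43 ± 0.314 and not called with 214866_at), SERPINE2 at 0.72 ± 0.173, PLAU at 1.43 ± 0.382 and PLAT at 3.47 ± 1.15. The PLAT call (limma adjusted p = 0.048) was lost in 13 of 18 fits that left out 1 array (2.79 to 3.84), with the highest adjusted p of 0.123 without control 24 h replicate 3, and had an adjusted p of 0.000604 with the block. The PLAU call was lost without control 24 h replicate 3 (1.27, adjusted p = 0.052) and with 211668_s_at (1.34 ± 0.472, adjusted p = 0.067). Aa low gave 0 calls beside 1.31%, but with the block PLAUR was called (1.42, adjusted p = 0.0267). Without control 48 h replicate 3 PLAUR (1.92, adjusted p = 0.0267), PLAU (1.44, adjusted p = 0.0208) and SERPINE2 (0.71, adjusted p = 0.0242) all were.

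The remaining compounds gave 0 calls between times. The share of all genes was 1.89% in Kbr high, 0% in Kbr low, 0% in Nnm high, 0% in Nnm low, 0% in CsA, 0% in Fk and 0.0459% in Ra. Over the 8 time comparisons without a call, 4 of 32 results had an unadjusted limma p under 0.05.

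Compounds with the same control cultures were compared with each other directly, at the dose labels and times they share, and since the labels give no amounts the doses are not matched. Of 32 results 7 were called. At 12 h CdCl differed from Di in 3 of 4 genes, beside 41.1% of all genes. SERPINE2 was 1.17 ± 0.0738 higher with CdCl, and PLAU and PLAT were lower with CdCl, at -0.46 ± 0.0963 and -0.87 ± 0.213. PLAUR differed by 0.50 ± 0.223 and was not called (limma adjusted p = 0.0852). It was called without control 48 h replicate 1 (0.50, adjusted p = 0.0184), with only the arrays compared (adjusted p = 0.0369), with the mean of all probe sets (0.76, adjusted p = 0.000165) and with 214866_at (1.38) or 210845_s_at (0.41).

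At 48 h CdCl and Di again differed in 3 of 4 genes, beside 42.6%, but in other directions. SERPINE2 was lower with CdCl (-0.90 ± 0.0738), PLAT higher (1.95 ± 0.213) and PLAUR higher (1.08 ± 0.223). PLAU differed by -0.23 ± 0.0963 (limma adjusted p = 0.0643, and without Di 48 h replicate 1 -0.29, adjusted p = 0.0409). Fk and Ra differed in 0 genes at 12 h beside 0%, and in 0 at 48 h beside 7.39%.

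Nnm differed from Kbr in 1 gene at the high dose for 48 h, beside 56.7%, with SERPINE2 lower by -0.57 ± 0.197 (limma adjusted p = 0.0168). That call was lost without Kbr high 48 h replicate 3 (-0.50, adjusted p = 0.0617) or Nnm high 48 h replicate 3 (-0.53, adjusted p = 0.0524). With the replicate block PLAT (1.46, adjusted p = 0.00338), PLAU (1.00, adjusted p = 0.0117) and PLAUR (1.37, adjusted p = 0.0121) were called higher with Nnm in that comparison. PLAUR was also called there without Nnm high 48 h replicate 2 (2.36, adjusted p = 0.00333) or Kbr high 48 h replicate 3 (1.92, adjusted p = 0.0372), and PLAU without Nnm high 48 h replicate 2 (1.77, adjusted p = 0.0213).

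At the high dose for 24 h Nnm and Kbr gave 0 calls beside 42.6%, and with the block PLAT was higher with Nnm (2.25, limma adjusted p = 0.000115). It was called as well without Nnm high 24 h replicate 2 (3.06, adjusted p = 0.0272) or Kbr high 24 h replicate 3 (3.06, adjusted p = 0.0375). At the low dose 0 were called at 24 h beside 32% and 0 at 48 h beside 42.8%. In the 5 compound comparisons without a call 1 of 20 results had an unadjusted p under 0.05.

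The replicate number went with the level of PLAT and PLAUR in the families whose numbers paired the samples, CsA, Aa and Nnm-Kbr. PLAT was highest on the array numbered 3 in 4 of 4 CsA groups, 6 of 6 Aa groups and 10 of 10 Nnm-Kbr groups, and in 0 of 6 Ota groups. PLAUR was likewise highest on number 3 in all groups of CsA, Aa and Nnm-Kbr, PLAU in all CsA and Nnm-Kbr groups and 4 of 6 Aa groups, and SERPINE2 in 4 of 4 CsA, 4 of 6 Aa and 6 of 10 Nnm-Kbr groups. The other families, whose numbers did not pair, also had number 3 highest in several of their 6 groups. In Ota this held for PLAUR in 4, PLAU in 5, SERPINE2 in 4 and PLAT in 0. In Fk-Ra it held for PLAUR in 4, PLAU in 3, PLAT in 4 and SERPINE2 in 2. In CdCl-Di it held for PLAUR in 2, PLAU in 2, PLAT in 3 and SERPINE2 in 4. In CsA, Aa and Nnm-Kbr the replicate block raised the calls against controls from 7 to 17 of 56 results and lost none. Of the 10 gained, 5 were PLAT, 4 PLAUR and 1 PLAU. The share of all genes called with the block is not given here, so this gain is not a result about these genes in particular. The same holds for each single call with the block given above.

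**Figure D5:**
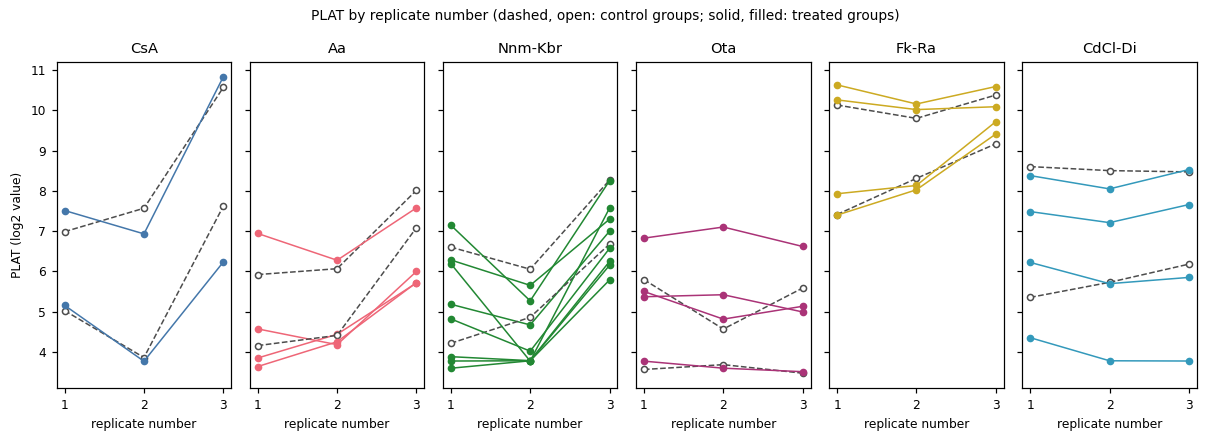
PLAT log2 value (vertical axis) by replicate number (horizontal axis) in the 6 families, with 1 line per group, dashed with open points for controls and solid with filled points for treated groups. In CsA, Aa and Nnm-Kbr every line ends highest at number 3, which the lines of Ota do not.

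The genes whose 26 changes ran most like those of a member were found by Pearson correlation over 10523 genes tested in all families, as a description, since the changes of a family share its controls. For PLAUR they were CD44, a hyaluronan receptor (r = 0.871), CARD19 (0.865) and BASP1 (0.84). For PLAU they were the serine protease gene PRSS23 (0.918), EMP3 (0.862) and the EGF receptor ligand gene TGFA (0.858), and for SERPINE2 PRSS23 (0.845), CD44 (0.836) and the oxytocin receptor gene OXTR (0.835). For PLAT they were APLP1 (0.821), the metalloproteinase inhibitor gene TIMP1 (0.75) and NENF (0.748). By Spearman correlation 5 of these 12 were again among the top 3. In Ota high 72 h CD44 differed from the controls by 3.26, PRSS23 by 3.78, TGFA by 1.38 and TIMP1 by 0.65, and in Di 48 h by 1.43, 1.91, 1.30 and -0.23. Between members r was 0.801 for PLAU with SERPINE2, 0.717 for PLAUR with SERPINE2, 0.71 for PLAUR with PLAU, 0.605 for PLAT with PLAUR, 0.543 for PLAT with PLAU and 0.272 for PLAT with SERPINE2.

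Of the wider system, 6 lists named 84 genes, of which 79 had a probe set and 55 were tested in at least 1 family. Over the 26 comparisons against controls 366 of their results were called. Among the plasminogen partners, which are plasminogen receptors, other serpins and clearance receptors, 22 of 294 results were higher and 47 lower. VLDLR, a lipoprotein receptor that also clears serpin-bound proteases, fell in 12 comparisons, most in Ota high 72 h at -3.36 ± 0.282. MRC2, which encodes a collagen receptor that associates with PLAUR, rose in 3 and fell in 6, with -1.80 ± 0.28 in Kbr high 48 h. PLGRKT, a membrane receptor for plasminogen, rose in 1 and fell in 7, with -1.73 ± 0.14 in Kbr high 48 h. HABP2 rose in Ota low 72 h by 2.30 ± 0.509 and the plasma kallikrein gene KLKB1 in Aa high 48 h by 2.28 ± 0.418. Both rises were from control means under 4, and each gene was tested in that family only. Each may have passed the level filter through arrays where it was high, in which case the filter itself favoured a rise. LRP1, which takes up urokinase bound to its inhibitors, was called in 0 of 26.

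Among the pericellular proteases and their inhibitors 40 of 300 results were higher and 29 lower. The collagenase gene MMP1 rose in 9 comparisons and fell in none, by 5.58 ± 0.695 in Ota high 72 h, 3.80 ± 0.695 in Ota high 24 h, 3.87 ± 0.193 in CdCl 48 h, 2.21 ± 0.193 in CdCl 12 h and 2.75 ± 0.231 in Aa high 48 h. The control means were 2.89 in the first and 3.34 in the third, at background. MET, the receptor of hepatocyte growth factor, rose in 7 and fell in 3. HPN, the membrane protease hepsin, fell in 8, with -3.03 ± 0.401 in Kbr high 48 h. MMP10, tested in the CdCl-Di family only because of arrays where it was high, rose in CdCl 12 h by 5.03 ± 0.113 from a control mean of 2.38. MMP7 rose in Ota high 72 h by 2.16 ± 0.178.

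The urokinase receptor's partners were higher in 22 and lower in 44 of 234 results. The integrin gene ITGB5 rose in 8 and fell in 6, with 2.19 ± 0.172 in Ota high 72 h. CAV1, which encodes caveolin-1, fell in 10, and EGFR rose in 2 and fell in 7, with -1.25 ± 0.103 and -1.27 ± 0.185 in Ota high 72 h. Among the coagulation genes of the cell surface 17 of 142 results were higher and 33 lower. TFPI rose in 5 and fell in 7, the thrombin receptor gene F2R rose in 2 and fell in 9, with -2.50 ± 0.302 in Kbr high 48 h, and PROCR rose in 3 and fell in 8. The tissue factor gene F3 rose by 2.04 ± 0.157 in CdCl 12 h and F2RL2 by 2.82 ± 0.247 in Di 48 h. F2RL2 was tested in only 12 of the comparisons, and its control mean for Di 48 h was 3.15, at background.

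AP-1 and Ets factors were higher in 75 and lower in 24 of 284 results. FOSL1 rose in 10 and fell in 3 comparisons. It rose by 4.70 ± 0.277 in Di 48 h and 3.60 ± 0.277 in CdCl 48 h, both from a control mean of 3.09. The rise was 3.47 ± 0.667 in Kbr high 48 h, from a control mean of 3.99, and 3.36 ± 0.592 in Aa high 48 h. The control means of 3.09 and 3.99 were at background. In Nnm high 24 h and Nnm low 24 h FOSL1 fell by -2.27 ± 0.667 and -2.70 ± 0.667, to means of 3.72 and 3.30 at background. FOSL1 rose by 2.21 ± 0.277 in CdCl 12 h, 2.14 ± 0.592 in Aa low 48 h and 2.18 ± 0.667 in Kbr low 48 h. The last had the same controls as Kbr high 48 h. ATF3 rose in 10 and fell in 2, from 7.16 ± 0.275 in CdCl 12 h and 6.89 ± 0.425 in Aa high 48 h to -3.61 ± 0.871 in Ra 48 h, where 1 array stood apart. FOSL2 rose in 11 and fell in 1, by -2.83 ± 0.189 in Ota high 24 h.

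FOSB, which passed the level filter in the Aa family only and through arrays where it was high, rose by 5.84 ± 0.484 in Aa high 48 h from a control mean of 2.25. FOS rose by 5.03 ± 0.334 there from background, and JUN by 2.36 ± 0.204 there and 2.04 ± 0.271 in Kbr high 48 h. JUND fell in Ota high by -4.36 ± 0.333 at 24 h and -2.58 ± 0.333 at 72 h. In Ota high 24 h, where 4 of 4 members rose, 1 of 10 factors of this list was higher and 5 were lower, beside 65% of all genes called (2384 higher and 4852 lower). In Ota high 72 h 7 were higher and 3 lower, beside 63.2% of all genes. Among the clade B serpins, the family of SERPINB2, 9 of 10 genes had a probe set and 2 were tested. SERPINB8 rose in 6 comparisons, by 2.33 ± 0.218 in CdCl 12 h, 2.24 ± 0.218 in CdCl 48 h and 2.06 ± 0.641 in Kbr high 48 h. The control mean in the last was 3.28, at background. SERPINB1 rose in 2 and fell in 5, with -2.94 ± 0.229 in Ota high 24 h. The lists were called in 23.5%, 23%, 28.2%, 35.2%, 34.9% and 25% of their results, in the order given here. The share of all genes called ran from 0 to 65% over these comparisons with a median of 22.4%. The list shares pool the results of all comparisons and this median does not, so a list share above it does not show more calls than among all genes.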

How the data were processed

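GCRMA made the log2 values, per the submitters' processing notes, with all data normalized together per the series' text. The deposited log2 values were used as they stood, 1 per probe set and array. Depth has no meaning for arrays, and the 3 arrays per group limit the precision. The members, lists and tests were chosen with earlier results of these data known. Testing in a family required a value above 4 on at least 3 of its arrays, which left 10806 genes in CsA, 11106 in Aa, 11036 in Nnm-Kbr, 11138 in Ota, 10889 in Fk-Ra and 11045 in CdCl-Di. All 4 members passed in every family.

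Group means were fitted with limma 3.58.1 (R 4.3.3), 1 model per family over both times, with empirical Bayes moderation and Benjamini-Hochberg adjustment over all genes tested. The procedure was tested on simulated data. Tables and figures used Python 3.11.15, pandas 2.3.3, numpy 2.4.6 and matplotlib 3.10.9. Replicate numbers were taken to pair samples where residuals of same-numbered arrays correlated above 0.1 in every pair. This held in CsA (lowest r 0.534), Aa (0.28) and Nnm-Kbr (0.139) and not in Ota (-0.0542), Fk-Ra (-0.176) or CdCl-Di (-0.274).

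Genes named are all members, the 3 genes of each list called in most comparisons, list genes with a called change of at least 2, and the 3 genes most like each member. LRP1 was chosen after its values were seen. Alternatives were other filters, probe set choices, quantile normalization, limma's trend option, other fits, the replicate block and leaving out each array. The fit of each further probe set was added after seeing the data.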

Additional observations from a re-analysis of the deposited data

Results flagged for a closer look

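The response to a compound differed between its times in 16 results by limma's test of that difference, given here as the change at the later time minus the change at the earlier time. With Ota high (72 against 24 h) PLAUR differed by 3.85, PLAU by 2.27 and SERPINE2 by 1.84. With Ota low PLAU differed by 1.28 and SERPINE2 by 1.07. With CdCl (48 against 12 h) PLAUR and PLAT differed by 1.24 each, PLAU by 1.49 and SERPINE2 by 1.00. With Di PLAU differed by 1.25, SERPINE2 by 3.07 and PLAT by -1.58. With Aa high (48 against 24 h) PLAUR differed by 2.01, PLAU by 1.43, PLAT by 3.47 and SERPINE2 by 0.72. Groups of 3 arrays were not searched for outlying samples.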

How the results depend on the processing

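Counts of called results kept within 1.5 times their value under every other alternative not named here. Without probe sets ending in _x_at or _s_at, which leaves PLAUR and SERPINE2 only, the calls were 16 against controls, 5 between doses, 6 between times and 5 between control cultures. One fit of all arrays gave 21 against controls, 9 between control cultures, 6 between doses, 5 between times and 4 between compounds. The replicate block gave 11 between compounds, and 40 against controls, and it was not run between control times. Both counts include the families whose numbers did not pair samples, and no share of all genes is given for them. Leaving out each array in turn gave 28 to 34 calls against controls, 10 to 13 between doses, 14 to 19 between times, 10 to 13 between control cultures and 6 to 9 between compounds. By Spearman instead of Pearson 5 of the 12 like genes were named again. Signs turned in few results: PLAUR with 214866_at in Ota low 72 h (-0.04) and between the Ota high responses (-0.26), both also without _s_at probe sets. With 227487_s_at SERPINE2 turned between the responses to Ota high (-0.13), Ota low (-0.00) and CdCl (-0.93), and that probe set was mostly at background. Values near 4 are limited by signal over background.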
